A study of Mus musculus with 5 samples.

Results

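The stretch described here is a 120 kb piece of mouse chromosome 17, at positions 24300000 to 24419999 of the array design, that contains Msln and Metrn among 11 closely spaced protein-coding genes. It was read in windows of 2 kb, of which 57 of 60 had the minimum of 4 probes, out of 36018 such windows on the chromosome. The stretch was chosen by measured values, namely a window at 24.390 Mb lower in total than in polyA RNA of the MEFF line. Metrn was its candidate gene. Levels in MEFF RNA and that contrast are therefore given as descriptions. Counts of windows passing a p cut-off in that contrast appear only where processing settings are compared. Because that contrast chose the stretch, these counts cannot serve as a test, and nothing is read from them. Of the 3 windows not measured, 24.406 Mb and 24.408 Mb held 0 probes and 24.306 Mb held 2. The study mapped transcription along chromosome 17 on 2-colour tiling arrays, each hybridised with double-stranded cDNA in 1 colour and genomic DNA of the same fibroblast line in the other. The groups were total RNA of MEFF cells (2 arrays), polyA RNA of MEFB cells (1 array) and polyA RNA of MEFF cells (2 arrays). Both lines are fibroblasts of FVBN embryos at 12.5 days after conception that immortalised spontaneously, and both lack 1 copy of a part of chromosome 17 through the Thp deletion. MEFF has the genotype Thp/+ and MEFB the genotype +/Thp, so the deletion sits on opposite parental copies. Per the labels the deletion runs over at least 4.6 Mb, from 8.6 Mb of mm9 onward, and the interval they give ends before the Msln and Metrn stretch. Each genotype is represented by 1 cell line, so line and parental copy of the deletion cannot be told apart. The array covers chromosome 17 only, and the fibroblast label was not checked against markers on other chromosomes.

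Mesothelin, the product of Msln, is a glycoprotein anchored to the surface of mesothelial cells, the lining of the body cavities, and is known as a tumour antigen. Meteorin, the product of Metrn, is a secreted protein first described for its action on glial cells and growing axons. A tiling array carries probes at regular steps along the chromosome whether or not a gene is annotated there, so that exons, introns and the DNA between genes are read alike. Because the cDNA was double-stranded, a probe reports transcripts of both strands together.

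The stretch carried 699 probes, 0.18% of those on the chromosome, with a median spacing of 124 bp against 139 bp for the whole chromosome. Levels are log2(cDNA/input) averaged over the probes of a window and centred on the median of all probes of the array, so that 0 is the typical probe. The arrays differed in contrast. The 99th percentile of the cDNA signal was 5.42 and 5.33 times its median in MEFF total RNA, 20.7 times in MEFB polyA RNA, and 9.17 and 22.4 times in MEFF polyA RNA. No probe of the stretch reached the scanner limit in either channel. The slide numbers in the file headers set both total RNA arrays apart from the 3 polyA arrays, so slide series and RNA type cannot be told apart.

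Gene names came from placing the stretch on the NCBIM37 sequence through the input channel alone, with no cDNA value used, because no genome build is stated for the array positions. The input signal predicted from base composition fitted best at a shift of 1538410 bp, where it explained 14.5% of the variance. The next best shift more than 1 kb away explained 5.05%, and the mean over all shifts was 0.632%. The first and the last 60 kb, placed separately, gave 1538413 and 1538405 bp. Of 12 blocks of 10 kb, 7 had their own best shift within 20 bp of that value. The weakest was the block at 24.370 Mb, under the 5' part of Narfl and the 3' end of Haghl, where the correlation at the placed shift was 0.09. Placed positions run from 25838410 to 25958409 on NCBIM37. Windows are named by the array position of their first base, in Mb.

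In array order the protein-coding genes were Gng13, Chtf18, Rpusd1, Mslnl, Msln, Narfl, Haghl, Ccdc78, Fam173a, Metrn and Fbxl16. RefSeq calls Narfl Ciao3 and Fam173a Antkmt. The annotation adds a miRNA gene, AC134908.1, under 1 probe inside Mslnl, and a long non-coding RNA, Gm17480, which overlaps Metrn on the other strand and runs on beyond the stretch. Chtf18 and Rpusd1 start next to each other and run apart, and Msln and Mslnl end next to each other and run together. Msln was placed at chr17:25885559-25891272 (NCBIM37, minus strand, 16 exons), Metrn at chr17:25931516-25934081 (minus strand, 5 exons) and Fbxl16 at chr17:25946030-25958189 (plus strand, 6 exons).

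Promoter sequences are shown for genes that mark the range of levels along the stretch: Metrn for its high exon level, Rpusd1 from the divergent pair, Mslnl as a gene near background on every array, and Fbxl16 as the gene with its exon probes highest in MEFB. They are from RefSeq's table for GRCm38.p6, run from 250 bases before to 50 bases after the start of the gene, and read 5' to 3' on the gene's strand. Capitals mark the CpG dinucleotides. Of the 11 genes 10 were matched, with 15 promoters between them, and Msln was not among them.
Metrn, chr17:25796996-25797295, strand minus (28 CpG): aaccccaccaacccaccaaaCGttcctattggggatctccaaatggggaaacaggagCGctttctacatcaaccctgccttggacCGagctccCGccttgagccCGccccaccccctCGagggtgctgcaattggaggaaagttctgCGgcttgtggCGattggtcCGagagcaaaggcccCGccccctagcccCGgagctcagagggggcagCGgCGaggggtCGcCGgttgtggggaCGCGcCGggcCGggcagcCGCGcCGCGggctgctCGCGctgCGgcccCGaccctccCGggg
Rpusd1, chr17:25727467-25727766, strand plus (16 CpG): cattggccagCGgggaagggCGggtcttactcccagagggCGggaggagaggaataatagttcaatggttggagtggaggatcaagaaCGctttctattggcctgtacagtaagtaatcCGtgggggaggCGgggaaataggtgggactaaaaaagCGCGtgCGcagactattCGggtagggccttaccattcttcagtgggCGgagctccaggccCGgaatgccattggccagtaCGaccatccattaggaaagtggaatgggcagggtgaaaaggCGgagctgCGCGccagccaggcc
Mslnl, chr17:25735790-25736089, strand plus (2 CpG): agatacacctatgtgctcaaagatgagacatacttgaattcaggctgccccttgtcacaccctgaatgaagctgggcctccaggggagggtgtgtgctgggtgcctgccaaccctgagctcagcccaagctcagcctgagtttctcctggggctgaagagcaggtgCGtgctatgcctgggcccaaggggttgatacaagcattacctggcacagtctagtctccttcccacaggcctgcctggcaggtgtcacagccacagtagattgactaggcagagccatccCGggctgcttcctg
Fbxl16, chr17:25808211-25808510, strand plus (5 CpG): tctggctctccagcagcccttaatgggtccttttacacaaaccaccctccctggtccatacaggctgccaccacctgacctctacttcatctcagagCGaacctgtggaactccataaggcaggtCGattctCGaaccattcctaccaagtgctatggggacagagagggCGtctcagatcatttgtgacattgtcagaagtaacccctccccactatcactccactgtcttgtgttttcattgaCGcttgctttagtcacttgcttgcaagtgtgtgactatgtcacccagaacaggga

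The Metrn promoter was dense in CpG, with a GC content of 69.3%, and 14.2% of all 32851 mouse promoters in the table held at least as many CpG dinucleotides. For Rpusd1 that share was 33.0%, for Fbxl16 62.0% and for Mslnl 85.9%. The Rpusd1 promoter shares 199 bases with that of Chtf18 on the opposite strand. Over the stretch, 11 of 15 promoters had at least the median CpG number of all promoters, which was 7. These 15 are not all separate sequences. Haghl promoters 1 and 2 overlap almost wholly, as do Fam173a promoters 2 and 3, so the same bases are counted again. The letters GGGCGG occurred on either strand in 8 of the 15, against 35.7% of all promoters. TATAAA occurred on either strand in 1 of them, that of Ccdc78, against 13.6% of all. These matches describe the letters of 300 bases and say nothing of factor binding.

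Along the stretch, the strongest MEFF polyA signal fell in 5 runs of windows, with lower levels between them. Not all of the DNA between was quiet, so the number of runs depends on the cut-off. Window 24.376 Mb, inside Narfl, was at percentiles 90.3 and 88.9 of all windows in MEFF polyA RNA. Window 24.384 Mb, over Haghl and Ccdc78, was at 88.4 and 91.1. A window was called bright on an array when its level exceeded the 95th percentile of all windows of that array, and bright in a group when this held on each of its arrays. Total RNA of MEFF had 5 bright windows (8.77%, against 4.39% of the chromosome). MEFB polyA RNA had 7 (12.3%, against 5.0%). MEFF polyA RNA had 16 (28.1%, against 4.36%), and every bright window of the other groups was among these 16. The rule chose the stretch for its signal in MEFF, so these shares are a description. The longest run in MEFF polyA RNA was 12 kb, from 24.318 to 24.33 Mb, over Chtf18 and Rpusd1. The others lay over Msln (24.346 to 24.352 Mb), Narfl (24.374 to 24.376 Mb), Narfl and Haghl (24.378 to 24.384 Mb) and Metrn with the DNA between it and Fam173a (24.390 to 24.396 Mb). The longest runs were 6 kb over Narfl and Haghl in MEFB polyA RNA and 4 kb in MEFF total RNA, over Msln and at Metrn. At the left border the windows inside and outside were both dim. At 24.300 Mb the levels were -0.05 and -0.12 in MEFF total, -0.16 in MEFB polyA, and -0.10 and 0.35 in MEFF polyA RNA. At 24.298 Mb, outside, they were -0.17 and -0.28 in MEFF total, -0.53 in MEFB polyA, and -0.33 and -0.54 in MEFF polyA RNA. At the right border only MEFB stood out inside, with levels at 24.418 Mb of 0.08 and -0.05 in MEFF total, 0.92 in MEFB polyA, and 0.04 and 0.42 in MEFF polyA RNA. At 24.420 Mb, outside, they were -0.02 and -0.09 in MEFF total, -0.24 in MEFB polyA, and -0.15 and -0.31 in MEFF polyA RNA.

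**Figure D1:**
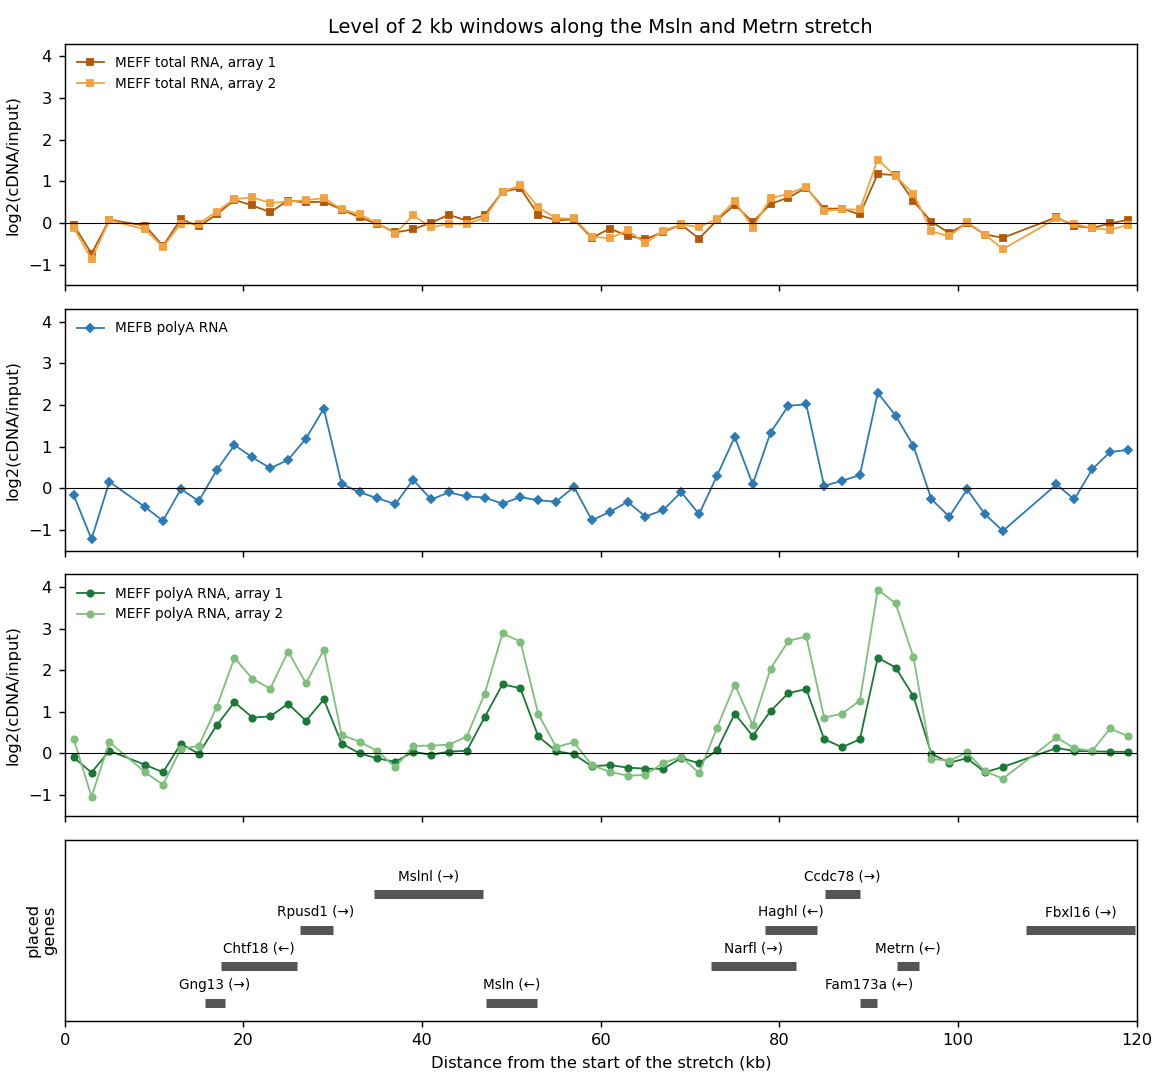
Level of each 2 kb window, as log2(cDNA/input) centred on the array median, against distance from the start of the stretch in kb, with 1 line per array. The upper panels show MEFF total RNA, MEFB polyA RNA and MEFF polyA RNA, and the bars at the bottom show the placed genes with the direction of transcription. Both MEFF groups peak over Msln near 50 kb, where the MEFB line stays at or below 0, and all 3 groups peak near Metrn at about 91 kb.

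Msln had the largest exon difference between the lines among the 11 genes. Its 18 exon probes had mean levels of 1.01 and 1.16 in MEFF total RNA, -0.12 in MEFB polyA RNA, and 2.45 and 3.62 in MEFF polyA RNA. All 4 MEFF arrays were clearly above 0 and the MEFB array lay just below it. In these bulk samples, fewer cells with a transcript and less transcript per cell cannot be told apart. The intron probes of Msln gave 0.43 and 0.42 in MEFF total RNA, -0.36 in MEFB polyA RNA, and 0.88 and 1.87 in MEFF polyA RNA, in the same order. The difference between MEFB and MEFF polyA exon means was -3.16, and it lay between -4.71 and -2.41 over 15 ways of processing the values.

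The same held probe by probe. MEFB was below all 4 MEFF arrays in 18 of 18 exon probes and in 43 of 47 probes of the gene body, against 26.0% of all probes of the chromosome. Of the 18 exon probes, 9 and 10 were bright in MEFF total RNA, 0 in MEFB polyA RNA, and 16 and 16 in MEFF polyA RNA. Across the 11 of its 16 exons that carry a probe, the MEFB minus MEFF polyA difference ran between -4.54 and -1.34, and MEFB was the lowest array in each. Exon 6, among the brightest, read 2.03 and 2.30 in MEFF total RNA, 0.19 in MEFB polyA RNA, and 3.99 and 5.49 in MEFF polyA RNA.

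The raw channels show which signal carried this. The median cDNA intensity of the Msln exon probes was 2.18 and 1.94 times the chromosome median in MEFF total RNA, 1.04 times in MEFB polyA RNA, and 6.11 and 14.7 times in MEFF polyA RNA. The input channel gave 0.867 and 0.955 times its median for MEFF total RNA, 1.08 times for MEFB, and 0.952 and 0.799 times for MEFF polyA RNA. Genomic DNA was thus read at a similar brightness at Msln on all 5 arrays, and the cDNA of MEFB was at the level of a typical probe of the chromosome.

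**Figure D2:**
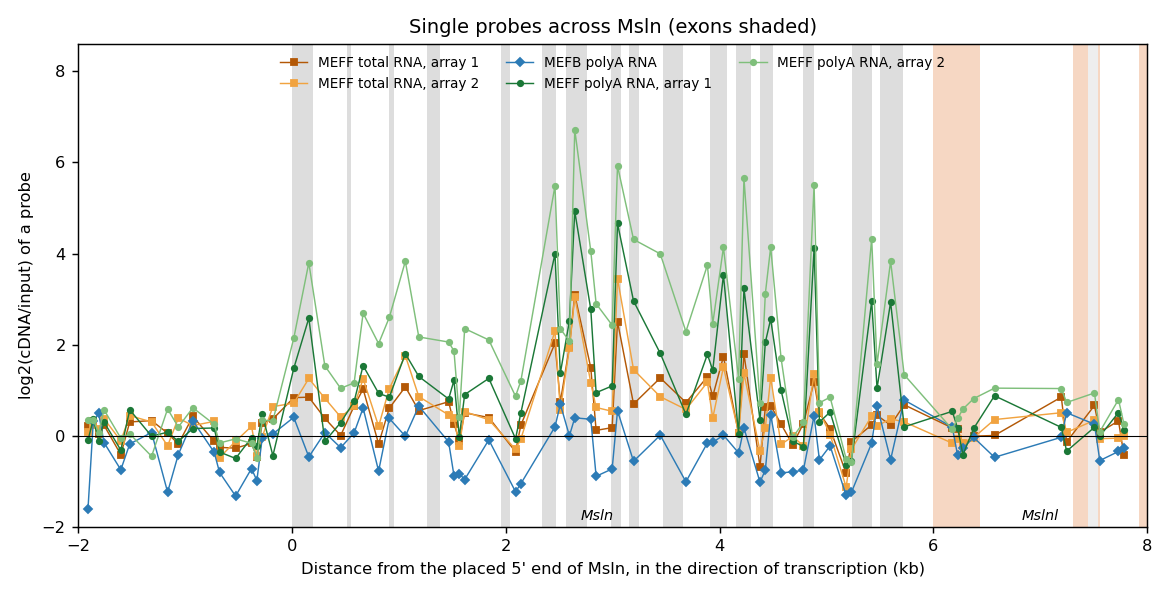
Level of single probes, as log2(cDNA/input), against distance in kb from the placed 5' end of Msln in the direction of transcription, with exons of Msln in grey and those of Mslnl in orange. Points and lines are single arrays. The MEFF polyA arrays peak over exons, the MEFF total arrays follow at lower levels, and the MEFB array stays between -1.31 and 0.69 over the whole gene body.

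The fibroblast lines were compared in a limma fit over all 36018 windows of the chromosome, which shares the MEFF polyA arrays with the comparison of RNA types. The stretch was chosen for a window high in MEFF polyA RNA, and those values are one side here, so the choice itself favours lower levels in MEFB near that window. With intensities as deposited, 4 windows of the chromosome (0.0111%) passed an adjusted p of 0.05 and 0 of the 57 in the stretch did. At an unadjusted p under 0.05 there were 13 of 57 windows (22.8%), against 14.4% of the chromosome. The 3 windows with the largest differences toward lower levels in MEFB were those over Msln. Window 24.348 Mb read 0.75 and 0.75 in MEFF total RNA, -0.37 in MEFB polyA RNA, and 1.66 and 2.88 in MEFF polyA RNA. Among all windows of the array this was percentile 96.2 and 96.6 in MEFF total RNA, 23.0 in MEFB polyA RNA, and 98.8 and 99.1 in MEFF polyA RNA. The MEFB minus MEFF polyA difference there was -2.64 ± 0.479 (SE, adjusted p = 0.16, limma). Windows 24.350 Mb and 24.346 Mb differed by -2.34 ± 0.444 and -1.37 ± 0.245 (SE, adjusted p = 0.16 for both, limma).

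After normexp background correction, which removes an estimated background from each channel before the ratio is taken, 4 windows of the stretch passed, all lower in MEFB and all over Msln or its ends. On the chromosome that setting called 0.941% of windows, and 0.375% as lower in MEFB. At 24.348 Mb the level fell by 3.81 ± 0.412 in MEFB against MEFF polyA RNA (SE, adjusted p = 6.3e-05, limma), and at 24.350 Mb the difference was -3.49 ± 0.407 (SE, adjusted p = 0.00012). The remaining windows were 24.346 Mb, with a difference of -2.34 and an adjusted p of 0.0027, and 24.352 Mb, with -1.88 and 0.025. Other settings called more or fewer windows of the stretch: 9 after quantile normalization (3.31% of the chromosome), 2 after loess (0.339%), 3 with a trended prior (1.25%) and 6 after normexp then quantile normalization (2.16%). Over all settings tried, the difference at 24.348 Mb ran between -4.32 and -2.03 and its adjusted p between 2.1e-13 and 0.36. There is 1 MEFB array, which the fit assumes to vary like the MEFF groups. The labels do not say that arrays of a group are separate cultures, so a p-value here speaks only to array-to-array spread, some of which may be technical.

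**Figure D3:**
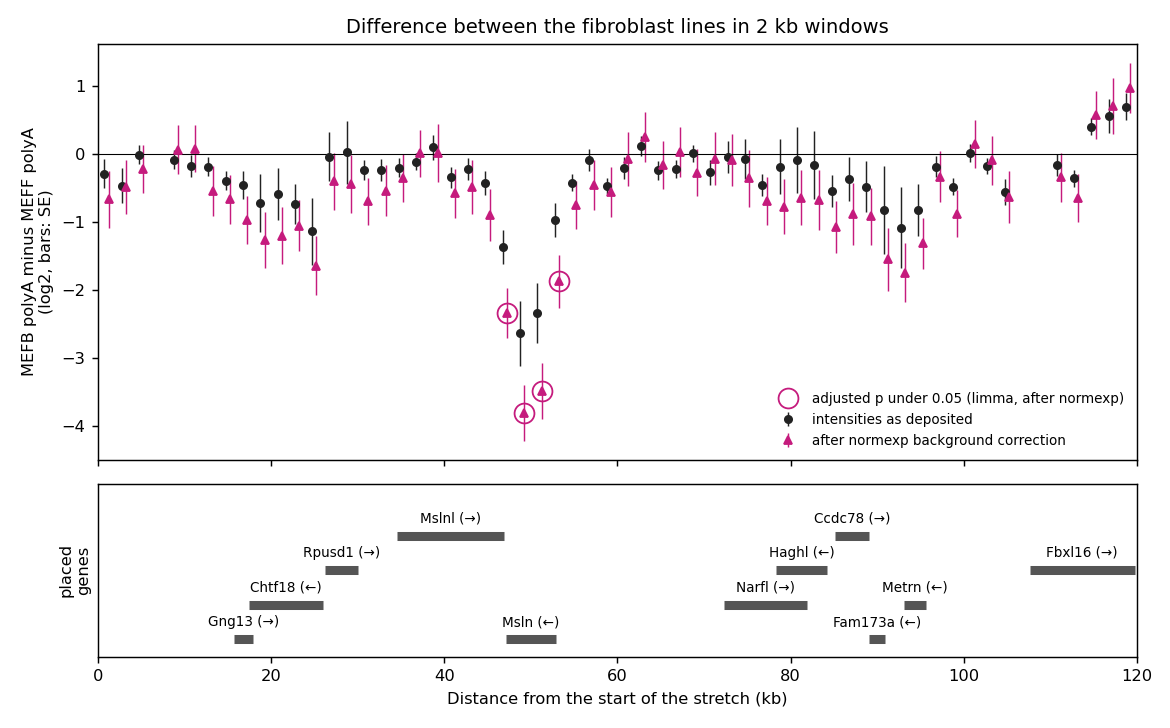
Difference in level between MEFB polyA RNA (1 array) and MEFF polyA RNA (mean of 2 arrays) per 2 kb window on a log2 scale, with bars of 1 SE from limma, against distance from the start of the stretch in kb. Black circles use intensities as deposited and pink triangles intensities after normexp, and rings mark adjusted p under 0.05. The 4 ringed windows lie over Msln, and the windows over Fbxl16 at the right end are above 0.

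MEFB was below both MEFF polyA arrays in 40 of 57 windows, against 32.3% of the chromosome, and above both in 5, against 34.7%. It was below all 4 MEFF arrays in 30, against 27.4% of the chromosome, and above all 4 in 4, against 29.7%. Since the stretch was chosen for high MEFF polyA signal, an excess of windows with MEFB below is favoured by the choice, and nothing is read from these counts. The mean level of the stretch was 0.134 and 0.144 in MEFF total RNA, 0.17 in MEFB polyA RNA, and 0.347 and 0.755 in MEFF polyA RNA. The same means over the chromosome were -0.0342 and -0.0409 in MEFF total RNA, 0.0431 in MEFB polyA RNA, and 0.0243 and 0.0194 in MEFF polyA RNA. The stretch was thus above the chromosome on each array, and the MEFF polyA arrays differed from each other by more than MEFB did from the lower of them. At the gene level, exon means of MEFB were below both MEFF polyA arrays in 5 of 11 genes, between them in 5 and above both in 1. Genes elsewhere on the chromosome were not placed. The shares of windows above are the only background at hand, and they include windows without genes.

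Metrn had the highest exon level of the 11 genes on each of the 4 MEFF arrays. In MEFB its lead over Rpusd1, 2.76 against 2.64, was not stable: Rpusd1 was higher with the median of probes (2.68 for Metrn against 2.99), with the cDNA channel alone (2.25 against 2.41), without the lowest 10% of input (2.14 against 3.08) and with the placing moved by plus 50 bp. Its 7 exon probes read 1.55 and 1.64 in MEFF total RNA, 2.76 in MEFB polyA RNA, and 3.25 and 4.53 in MEFF polyA RNA. Both lines thus gave strong Metrn signal, with MEFB below both MEFF polyA arrays and, as deposited, above both total arrays. The order against total RNA was not stable. After quantile normalization the exon mean was 2.08 in MEFB polyA RNA and 2.37 in MEFF total RNA. After normexp then quantile normalization these means were 4.02 and 4.49. The MEFB minus MEFF polyA difference was -1.13 and ran between -1.92 and -0.49 over the settings tried. The MEFF total minus MEFF polyA difference was -2.30 and ran between -2.94 and -0.97 over the settings tried. Metrn was the candidate gene of the choice, which used its MEFF polyA values, so both differences are descriptions. Only 2 of the 5 annotated exons carry a probe. Exon 3 read 1.67 and 2.04 in MEFF total RNA, 3.67 in MEFB polyA RNA, and 4.38 and 5.64 in MEFF polyA RNA, and was brighter than exon 5 on every array. Of the 7 exon probes 4 also lie in an exon of Gm17480, which is on the opposite strand, and the arrays cannot split the signal between the strands. The 12 exon probes of Gm17480 read 1.01 and 1.11 in MEFF total RNA, 1.77 in MEFB polyA RNA, and 2.26 and 3.47 in MEFF polyA RNA.

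The bright windows at Metrn reached past its annotated 3' end. Metrn and Fam173a, a gene for a methyltransferase of mitochondria, lie head to tail on the same strand, 2183 bp apart by the annotation. The gap holds 17 probes, a set chosen after its values were seen. They averaged 1.07 and 1.15 in MEFF total RNA, 1.57 in MEFB polyA RNA, and 1.80 and 3.48 in MEFF polyA RNA. Bright probes numbered 11 and 11 in MEFF total RNA, 11 in MEFB polyA RNA, and 15 and 16 in MEFF polyA RNA. The other 252 probes between protein-coding genes averaged -0.10 and -0.11 in MEFF total RNA, -0.33 in MEFB polyA RNA, and -0.14 and -0.08 in MEFF polyA RNA, so the gap was unlike the rest of the DNA between genes on each array. Window 24.390 Mb, which led to the choice of the stretch, covers the 5' part of Fam173a and the part of this gap next to it, and no annotated Metrn exon. It read 1.18 and 1.52 in MEFF total RNA, 2.29 in MEFB polyA RNA, and 2.30 and 3.93 in MEFF polyA RNA. Its neighbour 24.392 Mb, with the rest of the gap and the 3' end of Metrn, read 1.15 and 1.12 in MEFF total RNA, 1.74 in MEFB polyA RNA, and 2.06 and 3.61 in MEFF polyA RNA. Window 24.394 Mb, over the 5' part of Metrn and with 3 of its 13 probes before the gene, was dimmer on each array, with 0.52 and 0.71 in MEFF total RNA, 1.02 in MEFB polyA RNA, and 1.37 and 2.31 in MEFF polyA RNA. Between the lines these windows differed by -0.82, -1.09 and -0.82 in array order (MEFB minus MEFF polyA), given with no test because the MEFF polyA values there took part in the choice.

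**Figure D4:**
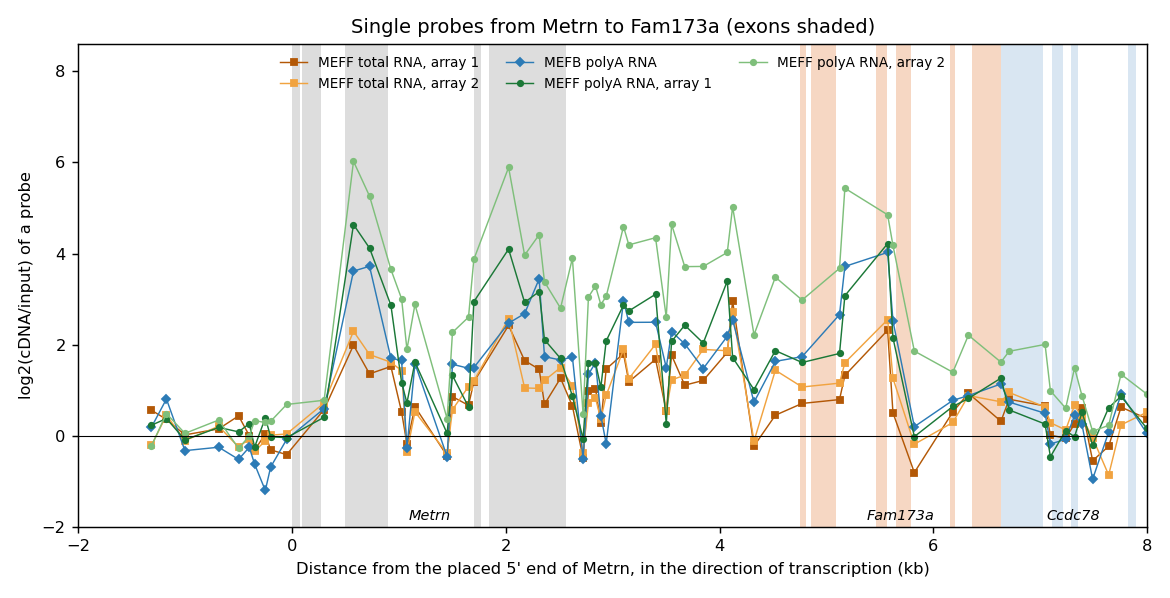
Level of single probes, as log2(cDNA/input), against distance in kb from the placed 5' end of Metrn in the direction of transcription, with exons of Metrn in grey, Fam173a in orange and Ccdc78 in blue. Points and lines are single arrays. Signal is low on every array before Metrn, whose exons 1 and 2 carry no probe. The first probe in the gene, at 299 bp, reads between 0.40 and 0.78, and the first strong one lies at 574 bp in exon 3. Signal continues through the 2183 bp between Metrn and Fam173a.

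The other bright genes were Chtf18, Rpusd1, Narfl and Haghl, with exon means above 0 on all 5 arrays. Rpusd1 encodes a protein with a pseudouridine synthase domain. Its 13 exon probes read 0.80 and 0.88 in MEFF total RNA, 2.64 in MEFB polyA RNA, and 1.79 and 3.23 in MEFF polyA RNA, with MEFB between the MEFF polyA arrays. Its divergent neighbour Chtf18, a subunit of a clamp loader used in sister chromatid cohesion, read 0.72 and 0.88 in MEFF total RNA, 1.37 in MEFB polyA RNA, and 1.73 and 2.91 in MEFF polyA RNA. Here MEFB was below both MEFF polyA arrays. Between these neighbours the MEFB minus MEFF polyA differences were 0.13 for Rpusd1 and -0.95 for Chtf18, against SDs between the MEFF polyA arrays of 1.02 for Rpusd1 and 0.835 for Chtf18. In window 24.328 Mb, over Rpusd1, the lines differed by 0.02 ± 0.47 (SE, adjusted p = 0.99, limma). The sign there turned in 7 of 14 alternatives, with -0.58 without MEFF polyA replicate 1 and 0.61 without replicate 2. The sign of the Rpusd1 exon difference turned in 6 of 14.

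Narfl, a factor of cytosolic iron-sulfur cluster assembly, and Haghl, named for its likeness to the glyoxalase hydroxyacylglutathione hydrolase, overlap at their 3' ends on opposite strands. The 31 exon probes of Narfl read 0.69 and 0.77 in MEFF total RNA, 1.99 in MEFB polyA RNA, and 1.47 and 2.66 in MEFF polyA RNA. The 17 of Haghl read 0.86 and 0.99 in MEFF total RNA, 2.03 in MEFB polyA RNA, and 1.67 and 2.88 in MEFF polyA RNA. For both genes MEFB lay between the MEFF polyA arrays. Window 24.380 Mb, over their shared end, and 24.382 Mb, over Haghl alone, differed between the lines by -0.09 ± 0.492 and -0.17 ± 0.496 (MEFB minus MEFF polyA, SE), with adjusted p of 0.95 and 0.90 by limma. Haghl had intron probes that were bright too, at 0.52 and 0.55 in MEFF total RNA, 1.59 in MEFB polyA RNA, and 1.14 and 2.29 in MEFF polyA RNA. Among these 31 probes are the 13 of Narfl exon 7, which lies wholly in an intron of Haghl. Narfl exon 8, with 10 probes, runs from the same intron into Haghl exon 4. The arrays do not split the strands, so this intron signal cannot be told apart from that of Narfl exons.

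Fam173a, Gng13 and Ccdc78 were dimmer. Fam173a has 2 exon probes, which read 0.61 and 0.68 in MEFF total RNA, 1.26 in MEFB polyA RNA, and 1.12 and 2.19 in MEFF polyA RNA. Its 6 intron probes were brighter than those on each array, at 0.84 and 1.21 in MEFF total RNA, 2.33 in MEFB polyA RNA, and 2.01 and 3.70 in MEFF polyA RNA. With exons assigned by probe start, it was the only gene of the 11 with introns above exons on all 5 arrays. That order was not stable. By probe centre, its exon and intron means were 1.12 and 0.745 in MEFF total RNA. They were 1.98 and 1.99 in MEFB polyA RNA, and 2.33 and 2.52 in MEFF polyA RNA. Gng13 encodes a gamma subunit of G proteins known from taste cells and olfactory neurons. Its 6 exon probes read 0.44 and 0.60 in MEFF total RNA, 0.90 in MEFB polyA RNA, and 1.26 and 2.00 in MEFF polyA RNA, and 3 of them also lie in an exon of Chtf18. The last exon, which overlaps Chtf18, held the signal, at 0.48 and 0.74 in MEFF total RNA, 1.29 in MEFB polyA RNA, and 1.59 and 2.70 in MEFF polyA RNA. Its first exon read 0.25 and 0.28 in MEFF total RNA, -0.14 in MEFB polyA RNA, and 0.40 and 0.52 in MEFF polyA RNA, with 1 probe. Ccdc78, a coiled-coil protein of multiciliated cells, read 0.34 and 0.54 in MEFF total RNA, 0.30 in MEFB polyA RNA, and 0.22 and 1.25 in MEFF polyA RNA, so that the groups overlapped.

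**Figure D5:**
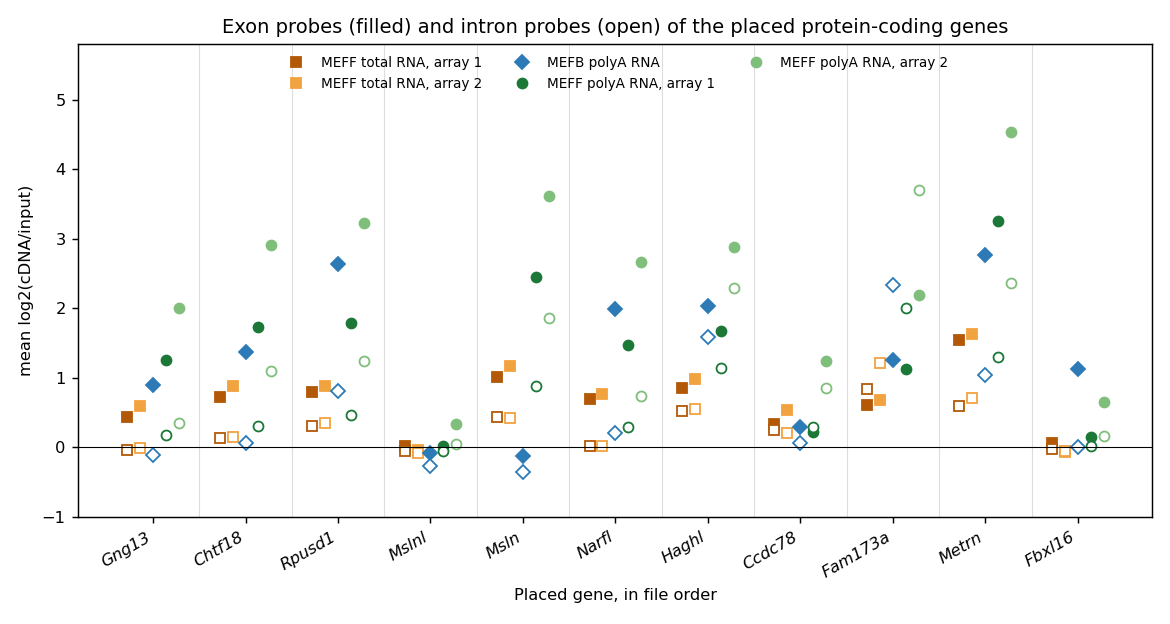
Mean log2(cDNA/input) of exon probes (filled) and intron probes (open) for the 11 placed protein-coding genes in array order, with 1 point per array. Squares are MEFF total RNA, diamonds MEFB polyA RNA and circles MEFF polyA RNA. The filled diamond is below 0 at Mslnl and Msln, and at Fbxl16 it is the highest point.

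Fbxl16 was the gene with MEFB above both MEFF polyA arrays. It encodes an F-box protein with leucine-rich repeats, a family known as substrate adaptors of ubiquitin ligases. Its 20 exon probes read 0.06 and -0.07 in MEFF total RNA, 1.12 in MEFB polyA RNA, and 0.15 and 0.65 in MEFF polyA RNA. The MEFB minus MEFF polyA difference was 0.72 and ran between 0.42 and 1.14 over the settings tried, against an SD of 0.353 between the MEFF polyA arrays. MEFB was above both MEFF polyA arrays in 13 of 20 probes, against 35.6% of all probes of the chromosome, and above all 4 MEFF arrays in 12, against 27.9%. Bright probes numbered 0 and 0 in MEFF total RNA, 8 in MEFB polyA RNA, and 0 and 2 in MEFF polyA RNA. The 3 exons with probes, of 6, were each highest in MEFB. Exon 2 differed most, with -0.16 and -0.04 in MEFF total RNA, 1.75 in MEFB polyA RNA, and 0.28 and 0.52 in MEFF polyA RNA. Its 44 intron probes were near 0 on each array, between -0.05 and 0.17.

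The windows 24.414 Mb, 24.416 Mb and 24.418 Mb over Fbxl16 had the largest differences of the stretch toward higher levels in MEFB, at 0.40 ± 0.121, 0.55 ± 0.251 and 0.69 ± 0.193 (MEFB minus MEFF polyA, SE). None passed, with adjusted p of 0.27, 0.39 and 0.25 by limma as deposited, and 0.72, 0.70 and 0.35 after normexp. With the probes of the lowest 10% of input signal left out, the difference at 24.418 Mb was 0.03, and with the median of probes that at 24.414 Mb turned to -0.05. The raw median cDNA intensity of the Fbxl16 exon probes was 1.16 and 1.10 times the chromosome median in MEFF total RNA, 3.44 times in MEFB polyA RNA, and 1.16 and 1.67 times in MEFF polyA RNA.

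Mslnl, the mesothelin-like neighbour and relative of Msln, gave no bright exon probe on any array. Its 16 exon probes read 0.02 and -0.04 in MEFF total RNA, -0.07 in MEFB polyA RNA, and 0.02 and 0.34 in MEFF polyA RNA. The raw cDNA intensity was 0.97 and 0.99 times the chromosome median in MEFF total RNA, 0.95 times in MEFB polyA RNA, and 1.03 and 1.16 times in MEFF polyA RNA. The 3' ends of Msln and Mslnl are 283 bp apart by the annotation, and the bright exon probes of MEFF lay on the Msln side. The 1 probe of AC134908.1, which also lies in an exon of Mslnl, read 0.66 and 0.34 in MEFF total RNA, 0.25 in MEFB polyA RNA, and 0.18 and 0.94 in MEFF polyA RNA. The dimmest windows were 24.302 Mb, 24.310 Mb and 24.404 Mb, all outside the protein-coding genes, with 24.404 Mb inside the span of Gm17480. Window 24.302 Mb read -0.74 and -0.87 in MEFF total RNA, -1.22 in MEFB polyA RNA, and -0.46 and -1.04 in MEFF polyA RNA.

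Exon probes stood above intron probes, and these above the DNA between genes, on each of the 5 arrays. The 177 exon probes averaged 0.62 and 0.70 in MEFF total RNA, 1.27 in MEFB polyA RNA, and 1.36 and 2.38 in MEFF polyA RNA. The 253 intron probes averaged 0.11 and 0.10 in MEFF total RNA, 0.05 in MEFB polyA RNA, and 0.27 and 0.74 in MEFF polyA RNA. The 269 probes between protein-coding genes, introns of Gm17480 included, averaged -0.02 and -0.03 in MEFF total RNA, -0.21 in MEFB polyA RNA, and -0.01 and 0.14 in MEFF polyA RNA. Exon means exceeded intron means on all 5 arrays in 8 of 11 genes. The median of the exon minus intron difference over genes was 0.47 and 0.53 in MEFF total RNA, 1.01 in MEFB polyA RNA, and 1.08 and 1.66 in MEFF polyA RNA. The placing used no cDNA value, but it used the input channel, which is the denominator of these levels. The order is therefore not fully independent of the placing. With the cDNA channel alone it did not hold in all of those 8 genes. Exons and introns of Mslnl then read 0.03 and 0.12 in MEFF total RNA, -0.02 and -0.002 in MEFB polyA RNA, and 0.16 and 0.15 in MEFF polyA RNA. Those of Msln read 0.19 and 0.32 in MEFB polyA RNA.

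Total RNA of MEFF stood below polyA RNA of MEFF over the genes, the contrast that chose the stretch. Both total arrays were below both MEFF polyA arrays in 28 of 57 windows, against 20.3% of the chromosome, and above both in 5, against 15.3%. Nothing is read from these counts, since they come from the contrast behind the choice. Exon means of both total arrays were below both MEFF polyA arrays in 10 of 11 genes, with Ccdc78 the exception. Mslnl, near background, is among the 10 by 0.021 in MEFF total array 1 against 0.022 in MEFF polyA array 1. The 20.3% is over windows with and without genes, so it is not a like-for-like background for this count. Nothing is read from it. With intensities as deposited, the largest exon differences were -2.30 for Metrn and -1.95 for Msln. Those of the windows were -1.77 at 24.390 Mb, -1.70 at 24.392 Mb and -1.52 at 24.348 Mb. These sizes depended on the processing. Over the settings tried, the exon difference ran between -2.94 and -0.97 for Metrn and between -2.53 and -1.04 for Msln. After quantile normalization the same windows differed by -0.64, -0.71 and -0.84. Within Msln the difference was not even along the gene. Exon 7 read 2.52 and 2.48 in MEFF total RNA, and 3.73 and 4.40 in MEFF polyA RNA. The last exons, 15 and 16, with 1 probe each, read 0.24 and 0.43, and 0.23 and 0.37, in MEFF total RNA. The same exons read 2.95 and 4.32, and 2.93 and 3.83, in MEFF polyA RNA. The windows with the largest differences toward higher levels in total RNA were small and outside the protein-coding genes, at 0.25, 0.19 and 0.16 for 24.308 Mb, 24.362 Mb and 24.402 Mb, the last inside the span of Gm17480.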

How the data were processed

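Per the file headers, NimbleScan 2.2.34 made the deposited files, which hold 1 raw intensity per probe for the cDNA (Cy3) and the input (Cy5) channel of 5 arrays. The values show no sign of background subtraction or normalization. Per the labels, the array maker labelled and hybridised the samples, and T7 amplification preceded labelling of the input. The 14 probes on other chromosomes and the mismatch column, listed at 0, were not used.

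From these, log2(cDNA/input) was centred on each array's median and averaged over 2 kb windows with at least 4 probes. The test was limma 3.58.1 under R 4.3.3 (lmFit and eBayes, 3 group means, 2 residual degrees of freedom) with Benjamini-Hochberg adjustment over all windows. Loess and quantile steps were kept as alternatives, since ratios of cDNA to genomic DNA need not centre on 0. The number of arrays limits the precision. The genome build of the array positions is not stated. Genes were taken from the NCBIM37 annotation after the stretch was placed by the input channel, assuming probes of 50 bases, scanned in steps of 20 bp. A probe counted as exonic by its start. The fit was run on simulated data in which every array had the spread of the MEFF total RNA pair. The wider spread between the MEFF polyA arrays was not simulated, so that run does not show how the fit behaves under it.

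The windows named were those at 24.390 to 24.394 Mb, the 5 highest and 3 lowest, and the 3 with the largest differences each way. The genes named were Msln, Metrn and the 5 with the highest and lowest exon levels. The values of Chtf18, Narfl, Fam173a, window 24.352 Mb and the gap beside Metrn were added after they were seen. Members and lists were chosen with earlier results of these data known. The alternatives were windows of 1 and 5 kb, the median of probes, at least 8 probes, loess (span 0.3), quantile normalization, normexp (offset 50), the cDNA channel alone, removal of the lowest 10% of input, a fit of the compared groups alone, a trended prior, each array left out, the 90th percentile for bright windows, and exons assigned by probe centre or with the placing moved by 50 bp. Normexp followed by quantile normalization, and normexp with each array left out, were added after the data were seen.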

Additional observations from a re-analysis of the deposited data

How the results depend on the processing

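The count of windows of the stretch that differed between MEFB and MEFF polyA RNA was 0 as deposited and 0 with other window sizes, probe summaries and probe minimums, but 2 after loess, 9 after quantile normalization, 4 after normexp, 3 with a trended prior and 6 after normexp then quantile normalization. Leaving out 1 array gave 0 to 40, with 40 and 28 without MEFF polyA replicate 1 and 2, where 13244 and 12545 windows of the chromosome passed, the total RNA pair being then the only replicates. After normexp it gave 7 and 7 without MEFF total replicate 1 and 2, and 16 and 4 without MEFF polyA replicate 1 and 2. For MEFF total against MEFF polyA RNA, the contrast that chose the stretch and from whose counts nothing is read, the count was 0 as deposited (17 at an unadjusted p under 0.05), 14 after quantile normalization, 7 after normexp, 1 after normexp then quantile normalization, and 0 to 30 with 1 array left out, with 30 and 18 without MEFF polyA replicate 1 and 2.

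The mean difference of the stretch between MEFB and MEFF polyA RNA was -0.381, and -0.668 after normexp, -0.166 for the cDNA channel alone, -0.621 after normexp then quantile normalization, and -0.585 to -0.177 with 1 array left out. The exon difference of Msln, -3.16, was -2.50 with the placing moved back by 50 bp, -2.41 after loess, -4.71 after normexp, -4.32 after normexp then quantile normalization, and -3.74 to -2.57 with 1 array left out. Bright windows of MEFF total RNA numbered 8 after normexp then quantile normalization and 14 above the 90th percentile, and those of MEFB polyA RNA 12 above the 90th percentile. These counts have no share of the chromosome beside them, so nothing is read from them. The sign of the MEFB minus MEFF polyA difference turned under at least 1 alternative in 6 of 18 named windows and 6 of the 12 genes other than Msln, where it did not turn. At 24.328 Mb (0.02) it was -0.58 without MEFF polyA replicate 1 (0.61 without replicate 2), -0.10 with the median of probes, -0.11 after loess, -0.16 after quantile normalization, -0.45 after normexp, -0.29 after both and -0.21 without the lowest 10% of input. At 24.380 Mb it was 0.53 without MEFF polyA replicate 2 (-0.72 without replicate 1), 0.05 after loess and 0.03 for the cDNA channel alone. At 24.382 Mb it was 0.47 without replicate 2 (-0.80 without replicate 1) and 0.10 for the cDNA channel alone. At 24.414 Mb it was -0.05 with the median of probes, and at 24.308 and 24.310 Mb 3 of 14 alternatives turned it. The genes were Rpusd1 (6 of 14), Narfl (3 of 14) and, each without MEFF polyA replicate 2 only, Haghl, Ccdc78, Fam173a and AC134908.1. The cause of these changes was not tested.

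No paired analysis was possible because the labels give the arrays no shared replicate numbers. Signal over background limits the dimmer genes most on the total RNA arrays, which had the least contrast.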
